A study of Mus musculus with 12 samples.

Results

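Interferon-responsive genes were followed along the small bowel of mice of 2 ages on a low-fat (LF) or a high-fat (HF) diet. A list of 41 genes that interferons are known to switch on was taken, and a gene was measured where a probe set (a group of array probes for 1 transcript) listed it as its only gene. The brightest such probe set by its mean over 12 arrays stood for the gene, and an intensity over 50 on at least 1 array was required. Of the 41 genes, 34 had such a probe set and 33 passed the minimum, out of 11926 genes tested in all. Mx1 stayed under the minimum, with a highest intensity of 41.6. The probe sets of Oas1g, Gbp2, Igtp, Irgm2, Ifi47 and Isg15 list several genes, and Ifi44 had no probe set named for it, so these 7 genes were not analysed here.

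Each of the 12 arrays held RNA of mucosal and submucosal scrapings from 1 segment of the small intestine (proximal, middle or distal) of male C57BL/6J mice. The groups were young LF, young HF, old LF and old HF, where young mice were 4 and old mice 21 months old, and LF supplied 10% and HF 45% of the energy as fat for 2 weeks, with palm oil in place of lard. All groups had received the LF diet in a run-in period, whose length the labels and the methods give differently. Each array carried RNA pooled from 6 young mice or from 8 old mice. The same mice gave all 3 segments, so that there were 4 pools and 1 array for each group and segment. A segment difference was therefore repeated over 4 pools, while an age or diet difference within a segment rested on 2 pairs of pools, and the difference of 1 array from 1 other had no error.

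Interferons are secreted when cells sense foreign nucleic acid. Type I and type III interferons act through a complex that includes Stat2 and Irf9 and binds the interferon-stimulated response element (ISRE), and interferon gamma acts mainly at the gamma-activated site (GAS). In the gut, epithelial cells answer type III interferon in particular, and immune cells of the mucosa answer type I interferon and interferon gamma. The members were ordered by what they do. Antiviral effectors block steps of viral growth, guanosine triphosphatases (GTPases) of the Gbp and Irg families act on vacuoles that hold microbes, and the chemokines Cxcl9 and Cxcl10 draw T cells that carry the receptor Cxcr3.

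The promoters of the members held ISRE and GAS letters more often than those of all genes, though not in every member. RefSeq windows from 250 bases before to 50 bases after the annotated start, in build GRCm38.p6, were at hand for 31 of the 41 members. The ISRE letters searched were TTTC and TTTC with any 2 bases between them, or GAAA and GAAA when read on the other strand, and they were found in 19 of these 31 genes (61.3%) and in 3.99% of 27025 genes with windows of the same length. The GAS letters were TTC and GAA with any 3 bases between them, which read alike on both strands, and they were found in 7 of the 31 genes (22.6%) and in 9.55% of all genes. ISRE letters were in 6 of 7 GTPase, 8 of 13 antiviral and 1 of 2 chemokine genes, and ISRE and GAS matches overlapped in 1 window, that of Bst2. Matches were sought as letters, and binding was not measured.

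The stretches below are shown because Ifit1, Ifit3 and Rsad2 differed most along the intestine among the antiviral genes, Oas1a stands for the synthetase family, and Gbp3, Gbp7, Irgm1 and Cxcl10 are the GTPases and the chemokine whose levels went different ways. Each lies before the start of its gene and reads 5′ to 3′ on the strand of the gene, with the ISRE and GAS letters in capitals. The stretch of Gbp7 holds 2 GAS matches and 1 ISRE match.
Ifit1 (chr19:34640775-34640854, plus strand): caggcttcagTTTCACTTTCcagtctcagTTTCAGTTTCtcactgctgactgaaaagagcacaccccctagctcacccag
Ifit3 (chr19:34583363-34583442, plus strand): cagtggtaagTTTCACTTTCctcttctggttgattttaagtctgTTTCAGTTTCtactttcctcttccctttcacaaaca
Rsad2 (chr12:26456503-26456582, minus strand): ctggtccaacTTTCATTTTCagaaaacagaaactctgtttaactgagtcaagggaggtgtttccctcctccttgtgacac
Oas1a (chr5:120907526-120907605, minus strand): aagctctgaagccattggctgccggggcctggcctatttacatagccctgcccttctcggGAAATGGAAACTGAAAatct
Gbp3 (chr3:142559964-142560043, plus strand): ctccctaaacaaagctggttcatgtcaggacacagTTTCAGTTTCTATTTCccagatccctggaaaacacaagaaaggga
Gbp7 (chr3:142530220-142530299, plus strand): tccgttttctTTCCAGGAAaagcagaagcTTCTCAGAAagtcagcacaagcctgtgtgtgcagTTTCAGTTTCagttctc
Irgm1 (chr11:48871421-48871500, minus strand): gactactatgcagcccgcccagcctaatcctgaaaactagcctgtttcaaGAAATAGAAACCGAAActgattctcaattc
Cxcl10 (chr5:92349033-92349112, minus strand): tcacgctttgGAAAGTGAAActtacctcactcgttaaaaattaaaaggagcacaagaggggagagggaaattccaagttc

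The labelled tissue was borne out by its defining markers. The 7 enterocyte markers summed to intensities of 31800 to 35600 on all 12 arrays. The ileal fatty acid binding protein Fabp6 lay at log2 values of 4.59 to 6.07 in the proximal and 13.06 to 13.09 in the distal segment. The middle arrays held Fabp6 at 9.49 in young LF, 11.31 in young HF, 8.84 in old LF and 7.58 in old HF, so that they differed in how much of this distal marker they carried. Pancreas acinar genes summed to 21200 to 48000 in the proximal segment and to 280 to 612 elsewhere, and 22 acinar genes were left out of the tests. The distal array of old HF correlated least with the others of its segment (r across genes of 0.980 to 0.986), and results that rest on it are also given without it where the fit allows. Ifit3, Oas1a, Gbp3, Iigp1 and Trim30a have close paralogs, and whether their probe sets match those as well was not tested.

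The clearest pattern was a fall of the interferon-responsive genes from the proximal to the distal small intestine. In limma, with the pool as a block and Benjamini-Hochberg adjustment over all genes, 28 of the 33 members were lower in the distal than in the proximal segment and 0 were higher. Among all genes tested 27.5% were lower. The median difference of the members was -0.83 on the log2 scale, against 0.02 for all genes. Mx2, Oas2 and Ifit2 passed the intensity minimum through their brighter, proximal arrays, with highest intensities down to 68.4 for Mx2. Of the 28 members over 50 on all 12 arrays, 24 were lower in the distal segment.

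**Figure D1:**
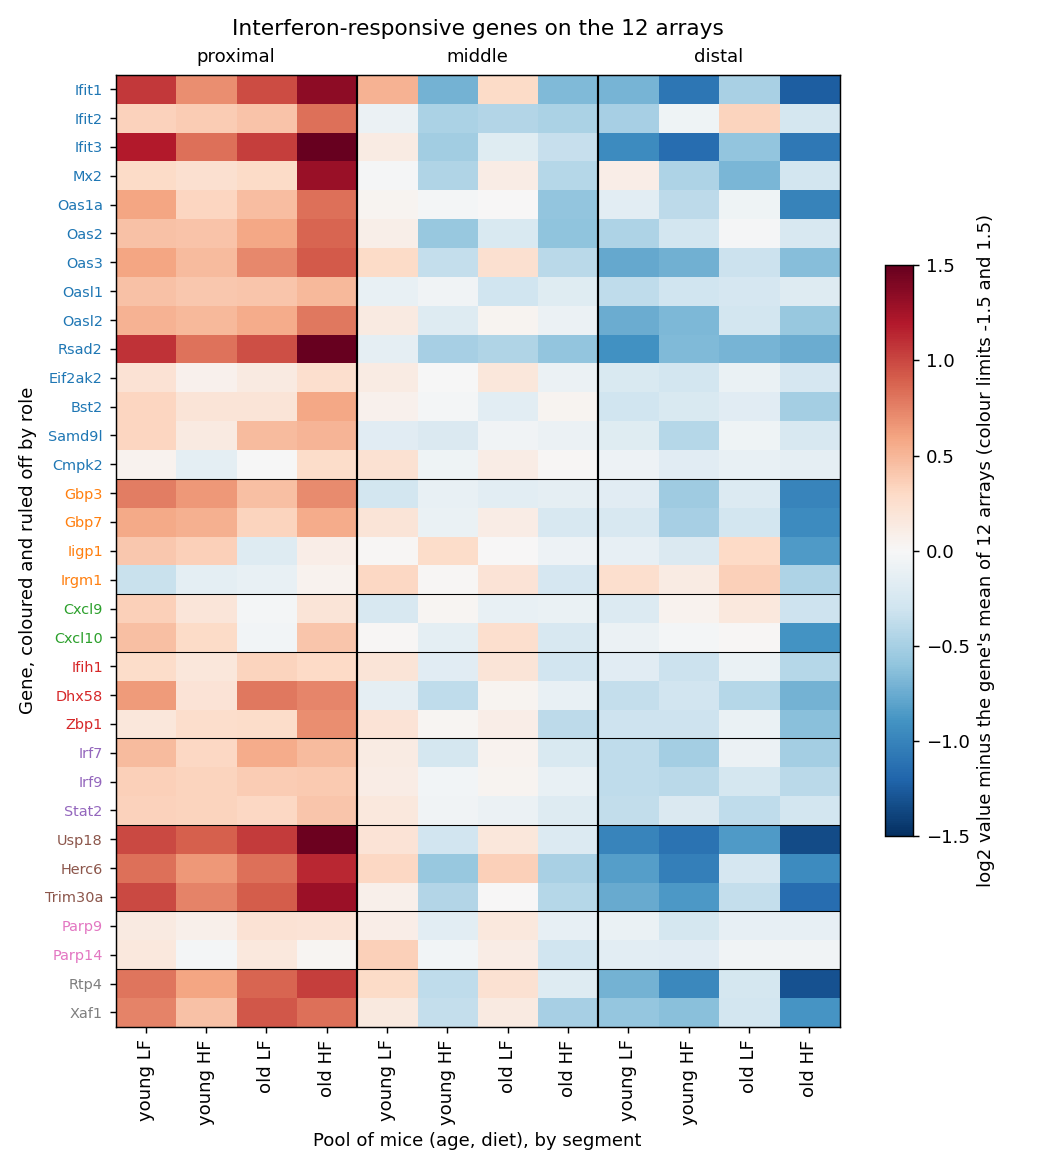
Log2 value of each of the 33 members (rows, grouped by role and coloured by it) minus its own mean over 12 arrays, for each array (columns, by segment and pool). Red is above and blue below the gene's mean. The 4 proximal columns are mostly red and the 4 distal columns mostly blue, and Irgm1 runs against this in 3 of the 4 pools.

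Among the antiviral effectors, 13 of 14 were lower in the distal segment, with a median difference of -0.84. Mx2 and Oas2 passed the intensity minimum on proximal arrays only, and Ifit2 on the proximal arrays and distal old LF. The filter thus favoured the falls of Mx2, Oas2 and Ifit2, which are in this count and median. In the order young LF, young HF, old LF and old HF, the log2 values of Ifit3, which binds foreign RNA together with other Ifit proteins, were 7.93, 7.57, 7.78 and 8.36 on the proximal arrays, 6.86, 6.22, 6.56 and 6.40 on the middle arrays and 5.80, 5.60, 6.15 and 5.67 on the distal arrays. Every distal array lay below every middle array, and every middle array below every proximal array. Ifit3 fell by 2.11 on the log2 scale from proximal to distal (SE 0.15, 4 pools, limma adjusted p = 1.6e-06). Rsad2, or viperin, which makes a nucleotide that ends viral RNA chains, lay at 7.84, 7.57, 7.73 and 8.56 on the proximal arrays, 6.62, 6.26, 6.31 and 6.17 on the middle arrays and 5.85, 6.09, 6.07 and 6.02 on the distal arrays. The proximal arrays stood apart, while the middle and distal arrays lay closer together, and Rsad2 fell by 1.92 (SE 0.18, limma adjusted p = 9.54e-06) from proximal to distal. Ifit1, which binds RNA without the host's cap marks, lay at 9.96, 9.59, 9.87 and 10.23 on the proximal arrays, 9.41, 8.19, 9.18 and 8.23 on the middle arrays and 8.20, 7.81, 8.41 and 7.66 on the distal arrays. Its distal arrays did not overlap its proximal arrays, and the difference was -1.89 (SE 0.21, limma adjusted p = 2.77e-05).

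The oligoadenylate synthetase family includes enzymes that make the messenger that switches on RNase L, though not every member does so. The differences of the family from proximal to distal were -0.96 for Oas1a, -0.83 for Oas2, -1.29 for Oas3, -0.72 for Oasl1 and -1.16 for Oasl2, all called. Smaller falls were called for the RNA-dependent kinase Eif2ak2 (-0.38), the tether of budding virus Bst2 (-0.62), the translation-blocking Samd9l (-0.59) and Ifit2 (-0.62). Mx2, a dynamin-like antiviral GTPase, differed by -0.85 (SE 0.23, limma adjusted p = 0.00924), and it was over the minimum on 1 array only, proximal old HF. The antiviral effector not called was Cmpk2, a mitochondrial nucleotide kinase, with a difference of -0.17 (SE 0.08, limma adjusted p = 0.085). All 14 antiviral differences were below 0, from -2.11 for Ifit3 to -0.17 for Cmpk2, where the filter favoured those of Mx2, Oas2 and Ifit2.

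The GTPases did not move as a group. Gbp3 differed by -1.12 (SE 0.15, limma adjusted p = 0.00012) and Gbp7 by -0.99 (SE 0.12, limma adjusted p = 5.23e-05), both guanylate-binding proteins. Iigp1, an immunity-related GTPase that attacks parasite vacuoles, differed by -0.39 (SE 0.18, limma adjusted p = 0.096). Irgm1, which regulates the other Irg proteins and autophagy, lay at 7.42, 7.61, 7.65 and 7.81 on the proximal arrays, 8.06, 7.78, 7.96 and 7.50 on the middle arrays and 8.01, 7.88, 8.12 and 7.30 on the distal arrays. It was higher in the distal segment in 3 pools and lower in old HF, and its difference of 0.20 (SE 0.15, limma adjusted p = 0.29) was not called. Without the old HF pool Irgm1 was called as higher (0.44, limma adjusted p = 0.00325), and without the old LF pool Iigp1 was called as lower (-0.69, limma adjusted p = 0.00179).

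Of the chemokines, Cxcl10 lay at 7.08, 6.93, 6.59 and 7.05 on the proximal arrays, 6.65, 6.49, 6.88 and 6.40 on the middle arrays and 6.54, 6.61, 6.65 and 5.74 on the distal arrays. The segments overlapped, and its fall of 0.53 (SE 0.18, limma adjusted p = 0.0287) was no longer called without the old HF, the young HF or the young LF pool. Cxcl9 differed by -0.25 (SE 0.11, limma adjusted p = 0.0816) and was called as lower without the old LF pool (-0.40, limma adjusted p = 0.0138). In all 4 pools 0 of 2 chemokines, 2 of 4 GTPases and 14 of 14 antiviral effectors were lower in the distal segment, and 30.7% of all genes were. The 14 include Mx2, Oas2 and Ifit2, whose falls the intensity filter favoured. The difference between the roles was not tested.

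**Figure D2:**
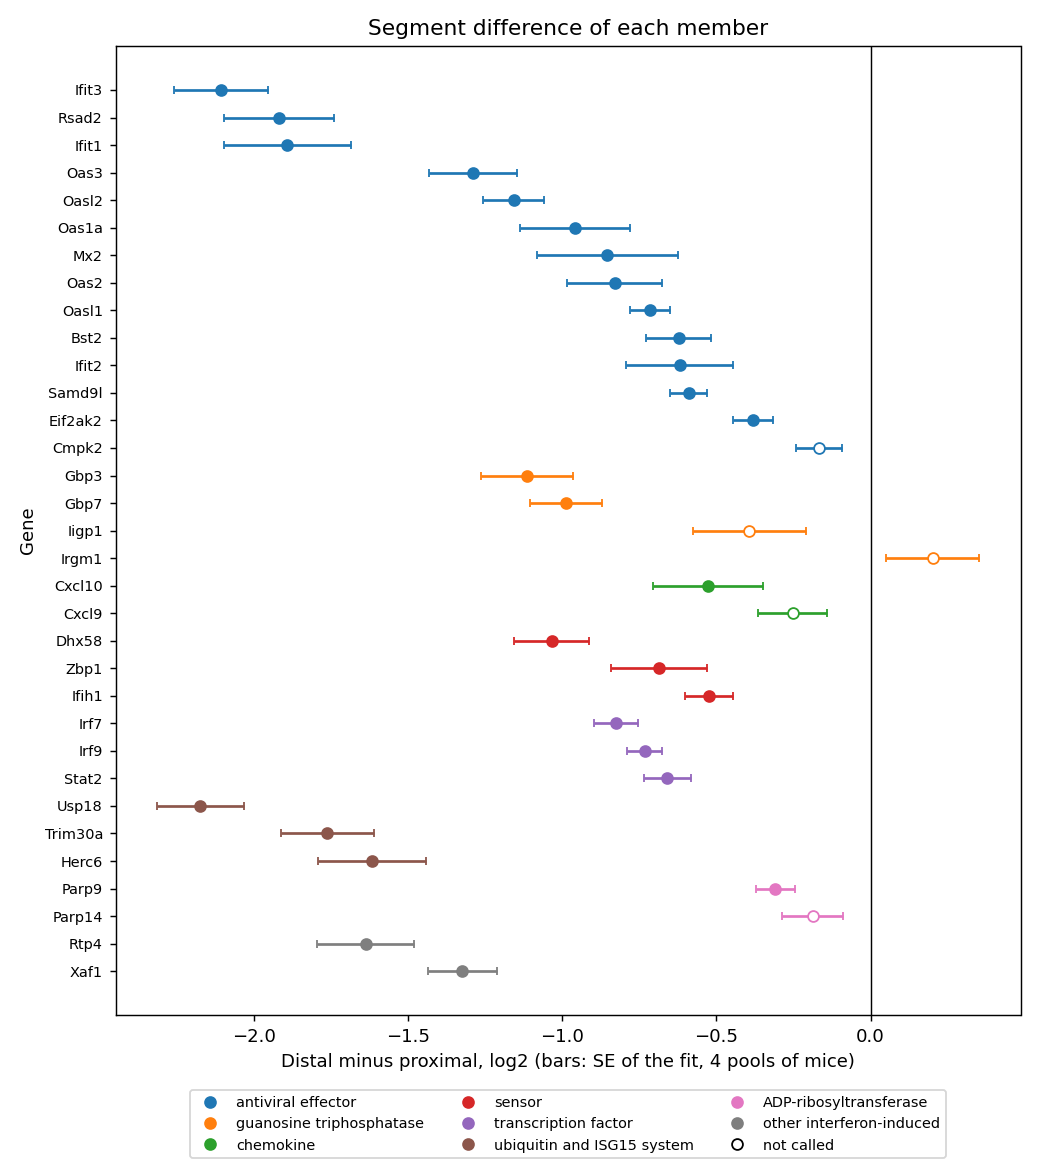
Distal minus proximal log2 difference of each member (points, coloured by role) with the SE of the limma fit over 4 pools (bars), filled where called. The ubiquitin and ISG15 genes Usp18, Trim30a and Herc6 and the antiviral genes Ifit3, Rsad2 and Ifit1 lie farthest to the left, and Irgm1 is the point to the right of 0.

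The genes of the ubiquitin and ISG15 system had large falls, 3 of 3 called. Usp18, which removes ISG15 from proteins and damps signalling at the type I receptor, lay at 8.17, 8.07, 8.22 and 8.64 on the proximal arrays, 7.38, 6.88, 7.34 and 6.97 on the middle arrays and 6.18, 6.07, 6.32 and 5.83 on the distal arrays. The 3 segments did not overlap, and Usp18 fell by 2.17 on the log2 scale, 4.51-fold, from proximal to distal (SE 0.14, limma adjusted p = 8.28e-07). Herc6, the ligase that attaches ISG15 in mice, differed by -1.62 and Trim30a, a tripartite motif protein, by -1.76. The receptor chaperone Rtp4 (-1.64) and the apoptosis factor Xaf1 (-1.32) fell as well. All of these were called.

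The sensors and transcription factors had smaller falls than the genes of the ubiquitin and ISG15 system. The sensors of viral RNA Ifih1 (-0.52) and Dhx58 (-1.03) and the sensor of Z-form nucleic acid Zbp1 (-0.69) were lower in the distal segment, as were Irf7 (-0.83), Irf9 (-0.73) and Stat2 (-0.66). Irf9 had close arrays, with proximal values of 8.52, 8.50, 8.55 and 8.56 and distal values of 7.79, 7.75, 7.90 and 7.75, and its segments did not overlap. Parp9, an ADP-ribosyltransferase, fell by 0.31, and its relative Parp14 was not called (-0.19, SE 0.10, limma adjusted p = 0.129).

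The fall was spread over both steps. From proximal to middle 24 of 33 members were lower (10.9% of all genes), with a median of -0.60, and from middle to distal 15 of 33 (20.0% of all genes), with a median of -0.28. The count of 15 from middle to distal was 6 without the young LF pool and 20 without the old HF pool. Of all 11926 genes, 3103 and 4003 were called in either direction in these 2 fits. The median of the first step was larger in 3 pools, and in young LF it was -0.39 against -0.44 for the second step. Rsad2 fell by 1.58 between proximal and middle and had a difference of -0.34 between middle and distal (SE 0.18, limma adjusted p = 0.169). Usp18 fell by 1.13 and then by 1.04. Ifit2 and Oas2 had values of 0.25 and 0.08 from middle to distal, not called.

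The fall was present in each pool. The median over the members was -0.82 in young LF, -0.70 in young HF, -0.65 in old LF and -1.31 in old HF. In this order 10, 12, 10 and 20 of 33 members fell by more than 2-fold, as did 498, 385, 448 and 517 of all 11926 genes. Mx2, Oas2 and Ifit2 are among the 20 of old HF, and the intensity filter favoured their falls. Old HF had the largest median, and it held the highest proximal values of Ifit3, Rsad2 and Ifit1 and the lowest distal values of Gbp3, Gbp7 and Cxcl10. For 28 of 33 members every distal array lay below every proximal array, against 23.8% of all genes. Mx2, Oas2 and Ifit2 are among the 28, and the intensity filter favoured this for them. Without the old HF pool 27 members were called as lower and 1, Irgm1, as higher, with a median of -0.71. Of all 11926 genes, 6457 were called in either direction in this fit.

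**Figure D3:**
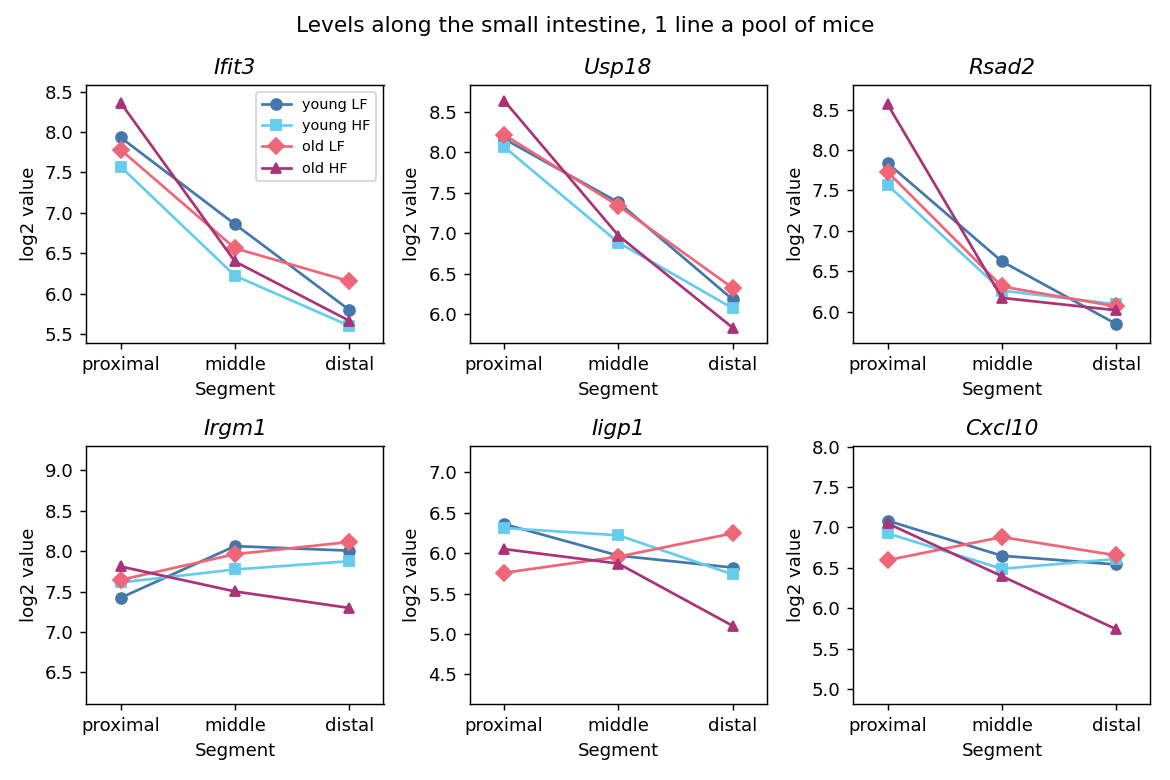
Log2 values of 6 members in the proximal, middle and distal segments, 1 line for each pool (young LF, young HF, old LF, old HF), with axes of equal span. Ifit3, Usp18 and Rsad2 fall in all 4 pools, while the lines of Irgm1, Iigp1 and Cxcl10 cross.

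Several other lists moved along the same axis. Of 11 tested markers of T cells and intraepithelial lymphocytes, 9 were lower in the distal segment and 1 was higher, led by the granzymes Gzma (-1.19) and Gzmb (-1.19) and by Cd8a (-0.78). Their summed intensity was 3890 to 4750 in the proximal, 2830 to 3730 in the middle and 1910 to 2820 in the distal segment. Of 10 myeloid markers 7 were lower and 2 higher, with summed intensities of 1680 to 2160, 2290 to 2490 and 1720 to 2630, led by Lyz2 (1.00), Cd68 (-0.76) and Itgax (-0.71). All 5 tested B cell markers were higher in the distal segment, led by Ms4a1 (1.53), Cr2 (1.47) and Cd79b (0.56), the 4 natural killer markers stayed under 50 on all arrays, and of plasmacytoid dendritic markers Siglech was under 50 while 2 of 3 tested were lower, Ccr9 (-0.63) and Cox6a2 (-0.28), with Pacsin1 at 0.04. Paneth cell markers (5 of 5 higher, median 2.13), smooth muscle markers (6 of 6 higher, median 1.70) and goblet cell markers (4 of 4 higher, median 0.71) moved the other way. Their part in the fall of the interferon-responsive genes was not tested. In RNA from whole scrapings, fewer cells of a type and less RNA per cell cannot be told apart.

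Other genes of the interferon pathway gave a mixed picture. Of a list of 122 such genes, 107 had a probe set of their own and 83 were tested, of which 40 were lower and 8 higher in the distal segment. Of all 11926 genes, 3281 were lower and 3255 higher. Of 19 interferon genes on the list 16 had a probe set and 13 of these were under the minimum on all arrays, including Ifnb1 (highest intensity 12.7) and Ifng (highest intensity 26.2). Ifna5, Ifnz and Ifnl2 were tested, with differences of -0.04, 0.21 and 0.07, not called. For the other interferon genes no difference was detectable at these intensities.

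Of the receptor chains, Ifnar2, the signalling chain of the type I receptor, fell by 1.62 (SE 0.06, limma adjusted p = 2.53e-08), and the type III chains Ifnlr1 and Il10rb fell by 0.48 and 0.47. Ifngr2 fell by 0.20, while Ifnar1 (-0.07) and Ifngr1 (-0.01) were not called. Of the kinases Jak2 fell by 0.49 and Jak1 by 0.19, and Tyk2 (-0.01) and Stat3 (-0.02) were not called. Of the brakes Usp25 fell by 0.37, and Socs1, Socs3, Ptpn2 and Pias1 had values of 0.00, 0.08, 0.02 and -0.05, not called.

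Further interferon targets with large falls were the helicase Ddx60 (-2.07), the ISG15-conjugating enzyme Ube2l6 (-1.32) and the nuclear body protein Sp100 (-1.32). Oas1b (-1.18) was called too, but it was over the minimum on 1 array only, proximal old HF (intensity 55.8). Not all went down. The sensor of cytosolic DNA Aim2, over the minimum on 10 arrays, rose by 1.13, Irf8, a factor of B and myeloid cells, by 0.82, Ifitm2, which blocks viral entry, by 0.72 and the kinase Ikbke by 0.67.

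The diet comparison asked whether 2 weeks of HF feeding moved these genes. In the middle segment 5 of 33 members were lower on HF than on LF and 0 were higher, while 1.24% of all genes were lower. Ifit1 went from 9.41 to 8.19 in young and from 9.18 to 8.23 in old mice, a difference of -1.09 (SE 0.17, 2 pairs, limma adjusted p = 0.0248). Herc6 went from 8.75 to 7.87 and from 8.79 to 7.96, Oas3 from 7.59 to 6.95 and from 7.54 to 6.90, Parp14 from 10.13 to 9.74 and from 9.89 to 9.47, and Ifih1 from 9.80 to 9.45 and from 9.80 to 9.32. Both HF arrays lay below both LF arrays for all 5 genes, which are 2 antiviral effectors, an ISG15 ligase, an ADP-ribosyltransferase and a sensor. The differences of the last 4 were -0.86, -0.64, -0.41 and -0.42, with limma adjusted p-values from 0.0305 to 0.0455.

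**Figure D4:**
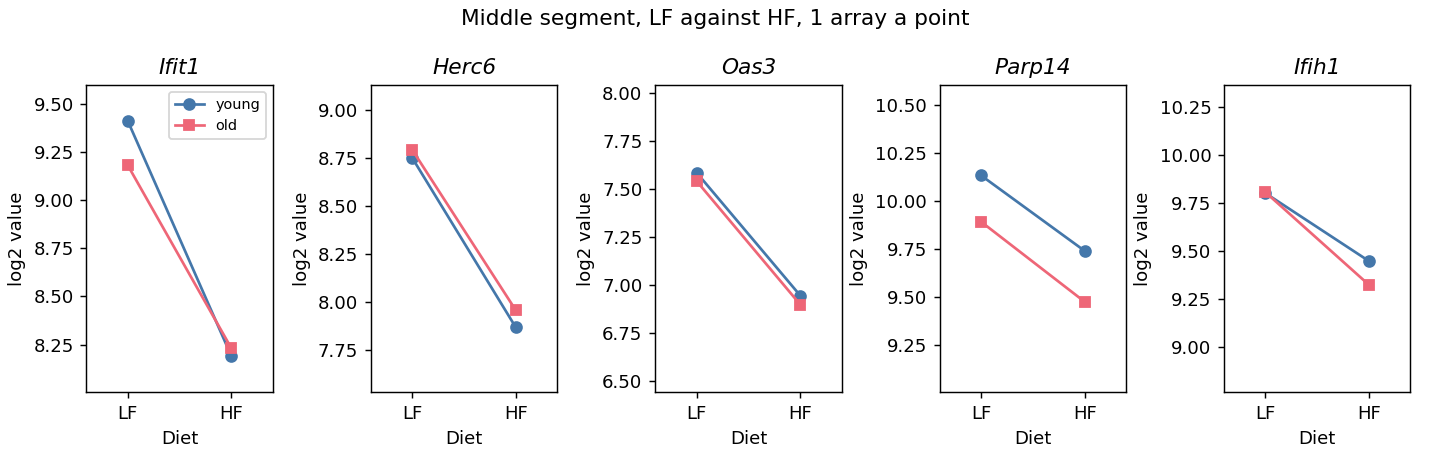
Log2 values of the 5 members called in the middle segment on LF and HF, 1 array a point, joined within young and within old mice, with axes of equal span. In each panel both lines fall, for Ifit1 by 1.23 in young and 0.95 in old mice.

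Over the members the median difference of the middle segment was -0.32, and 28 of 33 were below 0, as were 49.8% of all genes. Mx2, Oas2 and Ifit2 are among the 28 and were under the intensity minimum on every middle array. No GTPase or chemokine was called there. Gbp3 (0.09), Iigp1 (0.08) and Cxcl9 (0.14) had values above 0, and Gbp7 (-0.32), Irgm1 (-0.38) and Cxcl10 (-0.32) had values below 0. Of other pathway genes Ddx60 (-0.85), Casp4 (-0.75), Rnf213 (-0.47) and Sp100 (-0.35) were lower on HF. The differences rest on 2 pairs of pools, and their error on the pairs of all 3 segments, which come from the same mice. Without any 1 of the 4 middle arrays, which leaves 1 pair, 0 members were called, while 11 were called when the middle arrays were fitted alone and 3 without any 1 of the proximal arrays.

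A marker of the distal segment moved with the diet in the same arrays. The ileal bile acid transporter Slc10a2 was 7.48 on LF and 9.94 on HF in young mice and 6.84 and 7.79 in old mice, a rise of 1.70 on the log2 scale (SE 0.30, limma adjusted p = 0.0341). Fabp6 rose in young mice and fell in old mice on HF, by the values given above, and Fgf15 had a difference of -1.13, not called. The part of these distal markers in the diet differences was not tested. T cell markers of the middle arrays had a median difference of -0.12, with 0 of 11 called.

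In the pool means over the 3 segments 10 of 33 members were lower on HF and 0 were higher (3.11% of all genes lower). They were Ifit1 (-0.56, SE 0.06, limma adjusted p = 0.00766), Herc6 (-0.41), Rtp4 (-0.41), Xaf1 (-0.37), Oas1a (-0.29), Trim30a (-0.28), Oas3 (-0.25), Ifih1 (-0.25), Irf7 (-0.24) and Gbp7 (-0.23). The median of the members was -0.14. Without the middle segment 0 members were called, without the distal segment 3 and without the proximal segment 13. Of other pathway genes Ddx60 (-0.49), Casp4 (-0.45), Ifnar2 (-0.30) and Pml (-0.28) were lower and the coactivator Helz2 (0.38) was higher.

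In the proximal and the distal segment limma called 0 members for diet (0.319% and 0.528% of all genes in either direction), with 1 and 13 members at an unadjusted p under 0.05 (10.8% and 17.5% of all genes). In the distal segment these 13 included all 4 GTPases, with differences of -0.57 for Gbp3, -0.47 for Gbp7, -0.61 for Iigp1 and -0.47 for Irgm1 and adjusted p-values from 0.118 to 0.238. With an intensity trend and robust variance Gbp3 and Gbp7 were called. The values came mostly from the old mice. HF minus LF had a median over the GTPases of -0.80 in old and -0.19 in young mice, and a value for Cxcl10 of -0.91 in old and 0.07 in young mice. Low values in old mice were not particular to these roles. Rtp4 (-1.04), Oas1a (-0.94), Trim30a (-0.79), Ifit1 (-0.75) and Herc6 (-0.70) had them too, while Mx2, Oasl1, Stat2 and Parp9 were above 0.

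Single pairs of arrays showed where diet differences were large, with no p-value. In the distal segment of old mice Iigp1 (6.25 on LF, 5.10 on HF) and Rtp4 (7.70 and 6.66) were over 2-fold lower on HF, 2 of 33 members, against 0.411% of all genes. The HF value of Iigp1 was under the intensity minimum, a log2 value of 5.64. The same distal old HF array had the lowest summed T cell markers (1910, against 2450 in old LF) and the lowest distal B cell markers (304 against 512). It was also below old LF in the summed myeloid (1720 against 2430), fibroblast (756 against 1360), smooth muscle (1330 against 2340), endothelial (210 against 291) and Paneth (19900 against 26200) markers. The part of these lists was not tested. In the proximal segment of old mice Mx2 (5.09 on LF, 6.10 on HF) was over 2-fold higher (0.226% of all genes), but it passed the intensity minimum only on this HF array, so that nothing is read from the count. The antiviral effectors other than Mx2 were all above 0 in this pair too (48.8% of all genes). In young mice 13 of the 14 antiviral effectors were below 0 in the proximal segment, with a median of -0.14 (64.1% of all genes below 0). Mx2 is among the 13 and was under the intensity minimum on both arrays. In the middle segment Ifit1 of young mice was over 2-fold lower (0.109% of all genes).

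The age comparison asked whether old mice differed from young mice. limma called 0 of 33 members in the proximal, middle or distal segment (0.109%, 0.0252% and 0.57% of all genes in either direction), with 3, 2 and 2 members at an unadjusted p under 0.05 (8.66%, 8.8% and 19.0% of all genes). In the pool means 0 members were called as well (2.86% of all genes), with 10 at an unadjusted p under 0.05 (17.8% of all genes), and with an intensity trend and robust variance Herc6 (0.21), Oasl2 (0.16) and Samd9l (0.18) were called as higher in old mice. Within the proximal segment all 27 members outside the GTPases and chemokines had age differences above 0, with a median of 0.24 (51.2% of all genes above 0), and 5 of the 6 GTPases and chemokines had values below 0. Mx2 is among the 27, and since it passed the minimum only on the proximal old HF array, nothing is read from its sign. None of these 33 differences passed the test in limma. Without the proximal old HF array, which leaves 1 pair, the median over the 33 members was -0.01. Without the proximal old LF array it was 0.38. The proximal old HF array is also in the diet pair of old mice given above.

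Single pairs of arrays gave the age difference for each diet, with no p-value. In proximal HF arrays 32 of 33 members were higher in old than in young mice (57.2% of all genes), with a median of 0.38 for all members, 0.44 for the antiviral effectors, 0.05 for the GTPases and 0.07 for the chemokines. Mx2 (5.04 in young, 6.10 in old) was the member over 2-fold (0.0503% of all genes). Since the old array is the only 1 where it passed the minimum, nothing is read from that count or from its sign. The 32 members and the medians of all members and of the antiviral effectors include Mx2. Rsad2 differed by 1.00, Ifit3 by 0.79, Ifit1 by 0.64 and Usp18 by 0.57, and the lowest value was that of Iigp1 (-0.26). In proximal LF arrays the median was -0.01, with 16 members above 0 and 17 below.

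**Figure D5:**
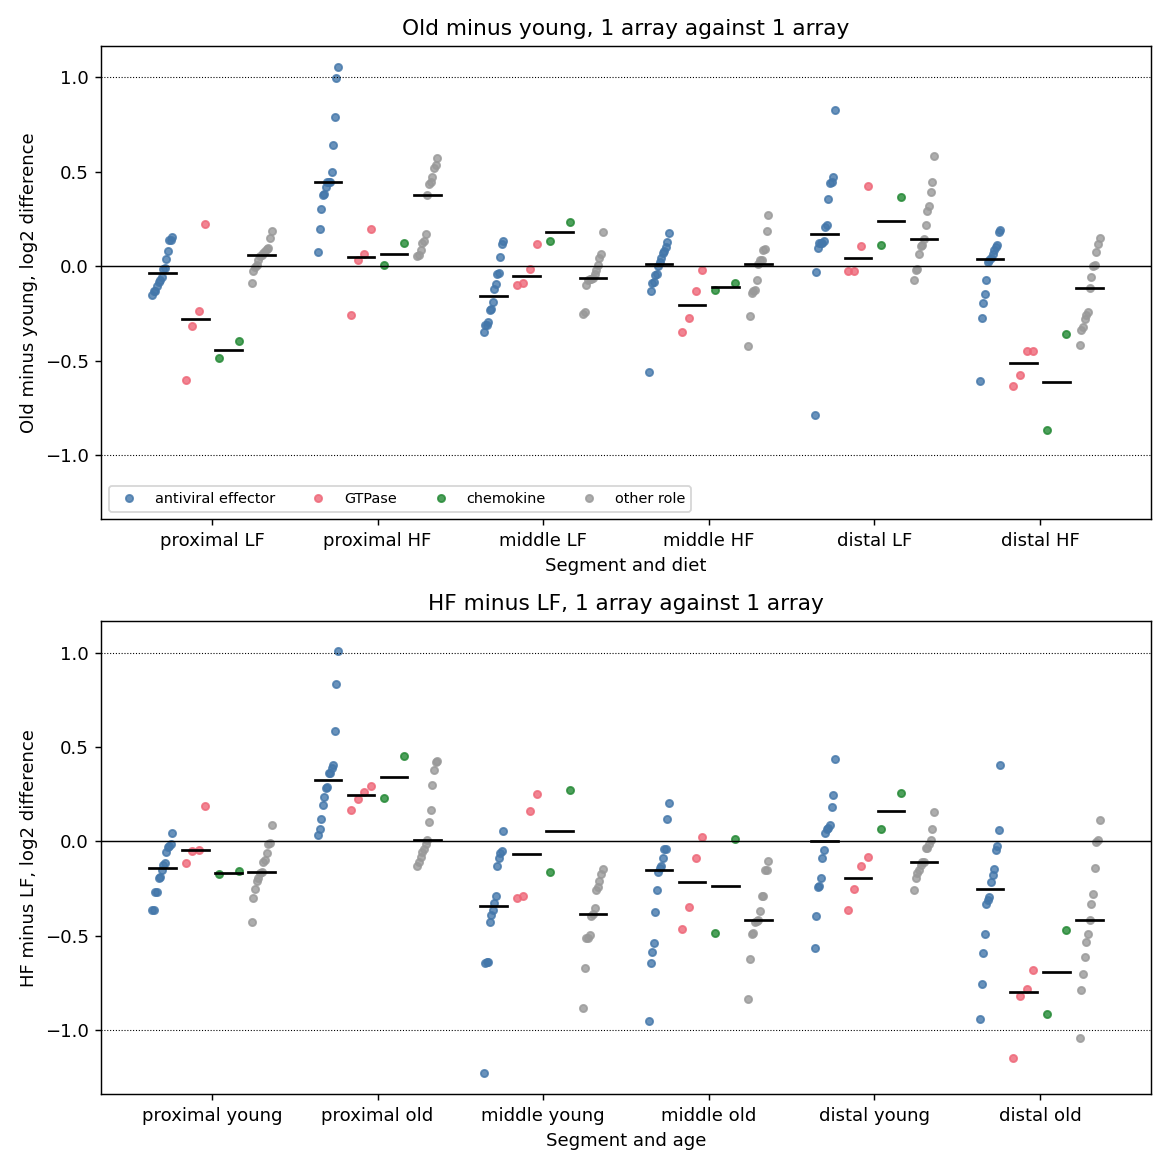
Log2 difference of 1 array from 1 other for each member, old minus young (top) and HF minus LF (bottom), by segment and diet or age. Points are genes, coloured as antiviral effectors, GTPases, chemokines and other roles, bars are medians of the role, and dotted lines mark 2-fold. Antiviral points lie above 0 for old minus young in proximal HF, and GTPase and chemokine points lie below 0 in distal HF.

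In distal HF arrays the medians of the roles differed. All 4 GTPases were lower in old mice (50.2% of all genes below 0), with a median of -0.52, and Cxcl9 (-0.36) and Cxcl10 (-0.87) were lower too, while the antiviral effectors had a median of 0.04 and 9 of 14 were above 0. Mx2 and Oas2 are among the 9 and Ifit2 among the rest. These genes were under the intensity minimum on both distal HF arrays, so nothing is read from their signs. The antiviral medians of the distal arrays include them. In distal LF arrays the medians were 0.04 for the GTPases, 0.24 for the chemokines and 0.17 for the antiviral effectors. The summed T cell markers of the distal HF arrays were 2820 in young and 1910 in old mice, and those of B cells 607 and 304. The myeloid (2550 and 1720), fibroblast (1350 and 756), smooth muscle (3200 and 1330) and Paneth (26000 and 19900) sums were lower in old mice too, and the part of these lists was not tested.

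Whether age acted differently on the diets was tested in limma with 1 term common to the segments. The arrays of a pool share mice, so this term cannot be told apart from a difference between single pools. Of 33 members 0 passed (0.0% of all genes), and Mx2 was the 1 member at an unadjusted p under 0.05 (0.64, SE 0.23, limma adjusted p = 0.999). Since Mx2 passed the intensity minimum only on the proximal old HF array, nothing is read from its value. The age and diet differences were also compared between segments, in 6 contrasts (0.0% of all genes for the age contrasts, and 0.0252%, 0.0503% and 0.0755% for diet between proximal and middle, proximal and distal, and middle and distal). Over these contrasts and the age-by-diet term, 231 member values were tested. limma called 0, with 33 at an unadjusted p under 0.05 (8.47% of the values of all genes) and a smallest adjusted p of 0.224. With an intensity trend and robust variance 1 member, Parp14, was called in 1 of these contrasts, the diet difference of the middle minus the distal segment. For no member was a difference between segments or diets shown by the main test at this number of arrays.

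Of other pathway genes Aim2 (0.41), Sp100 (0.36), Mlkl (0.30), which carries out necroptosis, and Ddx60 (0.27) were higher and Slfn4 (-0.33) and Ifitm1 (-0.31) were lower in the pool means of old mice. In the distal segment Aim2 (0.83) and Sp100 (0.54) were higher. Over 2-fold in a pair were Ifitm3, lower with age in distal HF (-1.18) and lower on HF than on LF in distal old mice (-1.27), and Phf11d in the same diet pair (-1.04). Phf11d was over the intensity minimum on 5 arrays only and had an intensity of 24.6 on this HF array. All 6 smooth muscle markers, led by Myh11 (-0.99), Acta2 (-0.93) and Cnn1 (-0.87), were lower in the pool means of old mice, as were 5 of 5 fibroblast, 3 of 5 endothelial, 2 of 10 myeloid and 1 of 11 T cell markers. Their part in the age differences was not tested.

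Promoter letters were set beside the segment difference as a description. Of the 24 tested members with a window, the 14 with ISRE letters had a median difference from proximal to distal of -0.97 and 13 were called as lower, and the 10 without had a median of -0.73 and 8 were called. Irgm1, whose printed stretch holds 2 overlapping ISRE matches, had the value of 0.20, and Ifit3, with 2 matches, that of -2.11.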

How the data were processed

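The 12 small intestine arrays (Affymetrix Mouse Gene 1.0 ST) were analysed from the deposited log2 values, which the authors made by RMA (background correction, quantile normalization and summary of probes). The version is not given in the sources used here. RMA ties the arrays to 1 distribution, so that differences are relative to it. The table holds 35556 probe sets, of which 21789 name a single gene, 1621 name more than 1 and 12146 are unnamed. Each of 19938 genes took its brightest probe set, 11926 were kept because some array exceeded an intensity of 50, and 22 pancreas acinar genes were left out. Arrays have no read depth, and their number limits the precision.

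Segments were compared in limma 3.58.1 (R 4.3.3) with the pool as a block, age and diet within each segment with the pairs of pools as replicates, and age and diet in pool means. P-values were adjusted by Benjamini-Hochberg over all 11926 genes, with a threshold of 0.05, and fits were tested on simulated data. Differences of 1 array from 1 other had a 2-fold threshold and no test. Pools are 1 for each group, so no p-value holds the spread between pools of the same group. For segments the error is how far the segment differences vary over the 4 pools. For age and diet it is how far the 2 pairs of pools disagree. In each fit limma draws the variance of a gene toward that of all genes. The rule for names took all members by role, other pathway genes past a threshold, over 2-fold, defining a role or among the 4 largest, and the 3 largest differences of each marker list. The members and lists were chosen with earlier results of these data known. Alternatives in filter, normalization, probe set choice, variance model, block and arrays left out are given in the closing section. Promoter windows were read with Python 3.11.15 and pandas 2.3.3.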

Additional observations from a re-analysis of the deposited data

How the results depend on the processing

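The 28 calls of distal against proximal were kept in 249 of 249 values under filters, normalizations, variance models, probe set choices and blocks, where Oas2, Mx2 and Ifit2 were not tested with an intensity over 100, and 0 values reversed. The 15 calls of distal against middle were kept in 127 of 135 values under these alternatives and in 42 of 60 without 1 pool. Leaving out 1 pool gave 27 to 30 calls in either direction for distal against proximal, 20 to 23 for middle against proximal and 6 to 20 for distal against middle (6 without young LF, 20 without old HF). With no replicate block for the pool, 28, 23 and 12 members were called in this order, and with the pool as a random block 28, 24 and 15.

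The diet calls depended on the processing. In the middle segment 5 members were called, against 2 with no intensity filter (Ifit1 and Mx1, which is not among the 33 members tested otherwise), 8 with an intensity trend and robust variance, 11 with the middle arrays alone and 0 to 5 when 1 array was left out. In the pool means 10 were called, against 3 with no intensity filter, 5 with arrays centred on their median, 5 with quantile normalization, 3 without the distal segment and 0 without the middle segment. In the distal segment 0 were called, against 2 with the trend and robust variance and 0 to 1 when 1 array was left out. The trend and robust variance also gave 3 calls for age in pool means and 1 for diet between the middle and distal segment. The calls among all genes tested changed with these settings too. For diet in the middle segment they were 304, against 150 with no intensity filter, 858 with the trend and robust variance and 484 with the middle arrays alone. In the pool means they were 673, against 182 with no intensity filter, 532 with centring and 509 with quantile normalization. The causes were not tested.

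Of single pairs, the count over 2-fold went from 1 to 0 for age in proximal HF with an intensity over 100, from 1 to 0 for diet in proximal old with that filter, centring or quantile normalization, and from 2 to 1 for diet in distal old with that filter or centring. The medians over the members moved by at most 0.07 in 72 alternative values. Pools of mice hide the spread between animals, 1 array for each group leaves few degrees of freedom, and genes near an intensity of 50, such as Mx2, Oas2 and Ifit2, lie close to background.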
